A study of Mus musculus with 8 samples.

Results

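The cytosolic ribosomal proteins are the protein part of the ribosome that translates nuclear messenger RNA. They were taken from the deposited gene table by name: protein-coding rows named Rpl or Rps followed by a number, with an optional a, x, y or l, together with Rplp0, Rplp1, Rplp2 and Rpsa. This gave 80 of 54532 genes, 31 of the small subunit and 49 of the large subunit. The levels came from RNA-seq of the inguinal fat pad (iWAT), a white subcutaneous depot, of male mice given a diet high in fat (HFD). One group was wild type (WT, n = 4 libraries) and the other carried an adipocyte knockout of the transcription factor KLF10 (KLF10AKO, n = 4). Both groups were HFD-fed. The labels give neither the age of the mice nor the diet's length, and they do not say which promoter drove the knockout or whether the WT mice carried a modified Klf10 allele. Since no animal is named for any library, every p-value below refers only to the spread among libraries, which may be technical.

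Each ribosome joins a small subunit, which reads the messenger RNA, to a large subunit, which forms the peptide bond. Most of these proteins are made from a single gene in nearly every cell, in equal numbers per ribosome, and cells that grow or divide make more of them. Their transcripts begin with a cytosine followed by a run of pyrimidines (a TOP motif), through which mTOR signalling and the RNA-binding protein LARP1 adjust their translation. A few genes have tissue-restricted relatives: Rpl3l is known from skeletal and heart muscle, and Rpl10l and Rpl39l from the testis. The comparison asked which genes of the fat pad differ when adipocytes lack KLF10, and here how the ribosomal protein genes differed within it.

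Promoter sequence was found for 60 of the 80 genes in RefSeq's table for GRCm38.p6, and the stretch from 50 bases before to 10 bases after the annotated start is shown for 7 of them. They are shown because the annotated start of Rps6, Rpl28, Rpl35 and Rps27 carries a pyrimidine run of the TOP kind, while Rps27l, Rpl39l and Rpl3l are the relatives whose levels departed from it. Capitals mark the longest run of pyrimidines, of at least 5, that reaches into the last 20 bases shown.
Rps6 (chr4:86857358-86857417, minus strand): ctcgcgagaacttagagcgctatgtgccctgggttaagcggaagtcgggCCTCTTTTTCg
Rpl28 (chr7:4792915-4792974, plus strand): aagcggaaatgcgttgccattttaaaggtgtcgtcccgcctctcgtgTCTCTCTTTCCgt
Rpl35 (chr2:39005122-39005181, minus strand): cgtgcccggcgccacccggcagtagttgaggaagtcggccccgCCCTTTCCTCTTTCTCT
Rps27 (chr3:90213639-90213698, minus strand): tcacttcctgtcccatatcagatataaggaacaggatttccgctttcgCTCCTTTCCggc
Rps27l (chr9:66946036-66946095, plus strand): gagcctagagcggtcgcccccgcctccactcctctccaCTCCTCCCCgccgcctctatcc
Rpl39l (chr16:10170178-10170237, plus strand): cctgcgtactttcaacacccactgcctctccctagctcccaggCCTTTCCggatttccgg
Rpl3l (chr17:24727776-24727835, plus strand): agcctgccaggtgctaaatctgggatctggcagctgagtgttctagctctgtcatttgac

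A run of at least 8 pyrimidines within 10 bases of the annotated start was present in 26 of the 60 ribosomal protein promoters (43.3%), against 13.9% of all 27025 promoters in the table. In the 300-base window (250 before and 50 after the start, both strands searched), the letters CCGGAAG, an ETS-type motif bound by GABPA among others, were present in 24 of 60 (40.0%) against 9.12% of all. GGGCGG, the core of an SP1-type site, was present in 35 of 60 (58.3%) against 35.9%, and AAGATGGC, a YY1-type motif, in 4 of 60 (6.67%) against 2.88%. CACGTG, the E-box bound by MYC, was present in 5 of 60 (8.33%) against 7.24%, TATAAA in 5 of 60 (8.33%) against 14.2%, and GGGTGTG, a motif of the kind KLF proteins bind, in 1 of 60 (1.67%) against 7.85%. The pyrimidine run can overlap CCGGAAG when that motif lies on the other strand. Among tested members with the run the median log2 change was 1.36 (26 genes), and among those without it 1.49 (33 genes). The same medians were 1.31 with CCGGAAG (24 genes) and 1.49 without it (35 genes), and 1.46 with GGGCGG (34 genes) and 1.42 without it (25 genes). These differences were not tested. Of the relatives shown, Rps27l carries a run of 9 bases, which ends before the annotated start. Rpl3l, whose start lies in a sequence with no run of 5 in the last 20 bases, has none of the 6 motifs. Rpl28, shown above, and several other members that rose have none of them either.

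The composition of the fat pads was read first, since every value is relative to the size of its whole library, which the authors had scaled. The marker counts below stand beside 39.4% of all 16012 genes tested higher in KLF10AKO and 34.9% lower in the main fit. All 14 adipocyte markers were lower in KLF10AKO, and their summed FPKM (fragments per kilobase of gene, in a library scaled by the authors) ran from 14300 to 16450 in WT and from 4952 to 6239 in KLF10AKO. All 14 B cell markers and all 14 T cell markers were higher, with summed FPKM of 137 to 267 against 2372 to 3380 and of 9.51 to 13.7 against 786 to 1185. Skeletal muscle markers summed to 169 to 222 in WT, to 6112, 4620 and 10790 in KLF10AKO 1 to 3 and to 38.0 in KLF10AKO 4. Of the 12 tested, 10 were higher, while voom on the recovered reads called 0. With KLF10AKO 4 alone, a single library, their median log2 change was -0.035. Of 10 macrophage markers 2 rose and 6 fell, while their summed FPKM was 678 to 763 in WT and 930 to 962 in KLF10AKO. Of 10 fibroblast and endothelial markers 9 fell. Of 10 genes of dividing cells 7 rose and 1 fell, but only 3 rose without KLF10AKO 4 and 3 after quantile normalization. Scaled to the adipocyte markers instead, 8 macrophage markers rose and none fell, and 7 fibroblast and endothelial markers rose and 2 fell. Under that scaling 13974 of all 16012 genes tested rose and 200 fell. No marker was at 0 in all 4 libraries of a group. Fewer cells of a type and less RNA per cell cannot be told apart in these bulk samples, and the part of cell composition in the results below was not tested. Klf10 itself fell by 0.88 on the log2 scale (standard error 0.0781, limma adjusted p = 8.97e-06). Its FPKM was 16.7, 18.2, 16.7 and 21.1 in WT 1 to 4 and 9.39, 9.68, 9.75 and 9.59 in KLF10AKO 1 to 4. Each value covers the whole gene, so it says nothing of a deleted exon, and with libraries scaled to the 14 adipocyte markers the change was 0.71. Recovered reads ran from 15537863 to 17499132 per library.

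Ribosomal protein genes took over 3 times as large a share of the fat pad's reads in KLF10AKO as in WT. The share was 1.80%, 1.91%, 1.96% and 1.76% in WT 1 to 4 (mean 1.86% ± 0.0938, SD, n = 4) and 5.78%, 6.21%, 5.05% and 6.80% in KLF10AKO 1 to 4 (mean 5.96% ± 0.738, SD, n = 4), a ratio of means of 3.21. All 4 KLF10AKO libraries lay above all 4 WT libraries, and the lowest KLF10AKO library was over 2 times the highest WT library. The summed FPKM of the family was 12260, 12399, 13506 and 11764 in WT and 32778, 35240, 29221 and 37707 in KLF10AKO. The rise was spread over almost the whole family. Of 79 members that passed the filter of a mean of at least 0.5 FPKM, 77 rose, where 39.4% of all 16012 genes tested did. One fell, Rpl39l, where 34.9% of all genes did, and Rps27l did not pass. The remaining member, Rpl10l, was under the filter. Rpl3l, counted among the 77, passed the filter only through KLF10AKO libraries. Each call is a two-sided limma test on log2(FPKM + 0.5), adjusted over the 16012 genes, at a threshold of 0.05.

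The size of the rise was alike for most members. Of the 77, 63 rose between 2-fold and 4-fold, 7 less than 2-fold and 7 at least 4-fold, and 70 were thus at least 2-fold higher, where 17.6% of all genes tested were. In 76 members all 4 KLF10AKO values lay above all 4 WT values, where 36.2% of all genes tested showed that. The groups overlapped in Rpl3l, Rpl39l and Rps27l, and Rpl10l had no reads. The median log2 change of the 79 was 1.44 (2.71-fold), with quartiles of 1.23 and 1.67, beside a median of 0.05 over all genes tested. Scaling set the height of the family's median but not its sign. It was 1.65 beside 0.25 for all genes with TPM, and 1.66 beside 0.24 with reads divided by their totals. The family's median was 1.47 beside -0.16 after quantile normalization and 3.08 beside 1.54 when scaled to the adipocyte markers. The 77 members that rose also passed as higher under each of these 4 scalings. Under the last, 13974 of all 16012 genes tested did, so passing it tells little of these members.

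**Figure D1:**
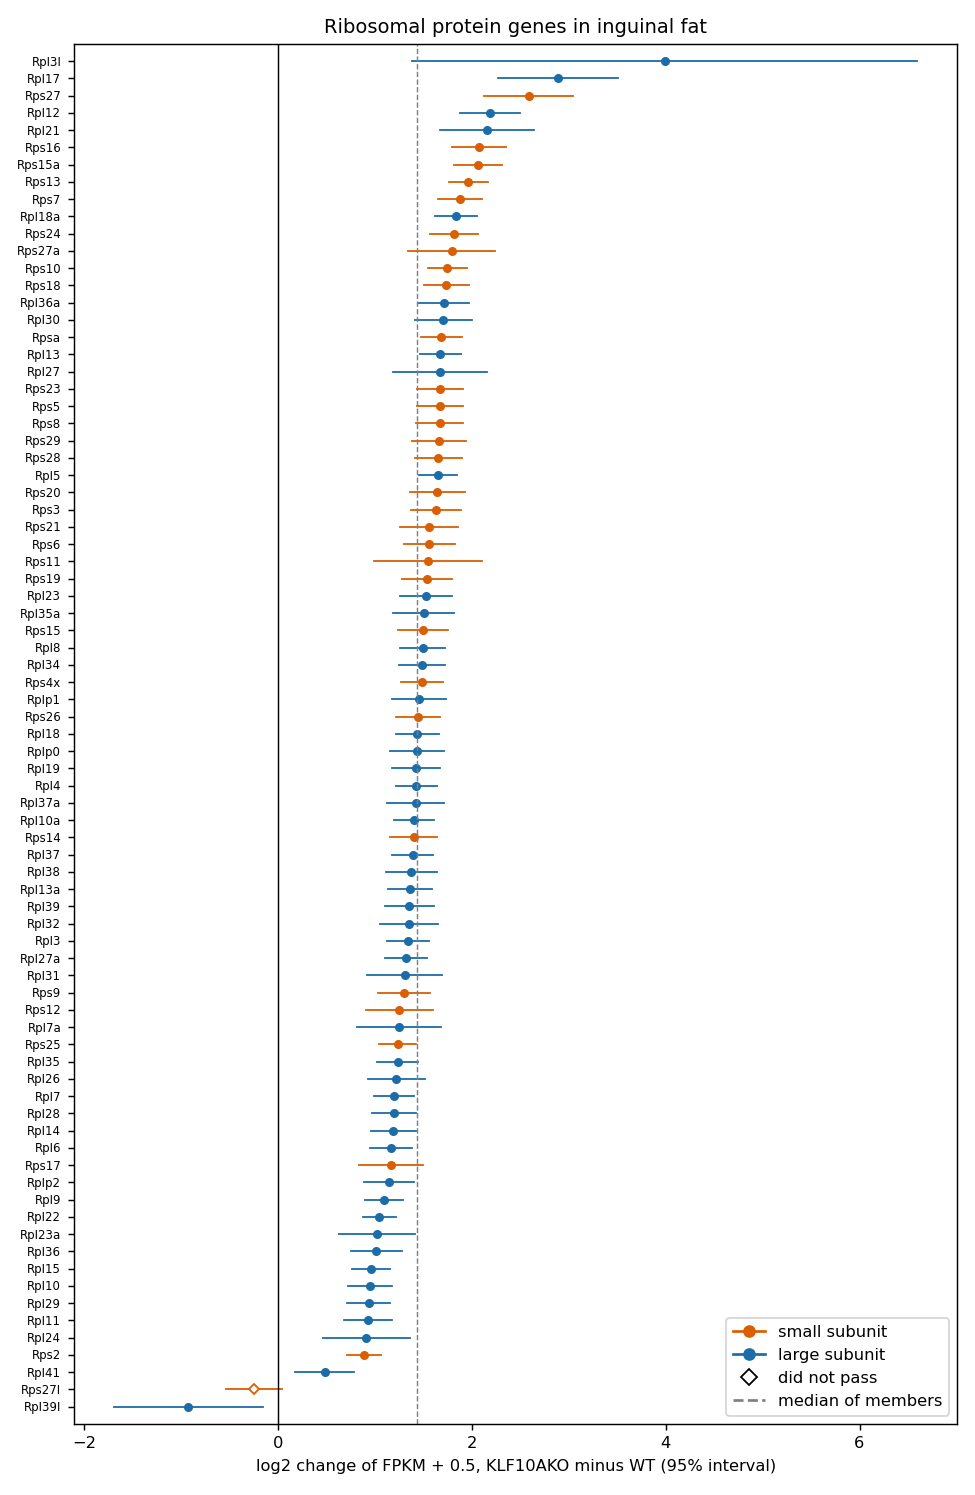
Log2 change of FPKM + 0.5 (KLF10AKO minus WT, horizontal axis) with its 95% interval for each of the 79 tested ribosomal protein genes (rows), coloured by subunit, with an open diamond for the gene that did not pass. Most points lie near the dashed median of 1.44, Rpl3l stands far right with a wide interval, and only Rps27l and Rpl39l lie left of 0.

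Small subunit genes rose somewhat further than large subunit genes. Of 31 small subunit genes 30 rose, with a median over the 31 of 1.65 (3.13-fold), and of 48 tested large subunit genes 47 rose and 1 fell, with a median of 1.36 (2.56-fold). The summed reads of the small subunit over those of the large subunit were 0.688, 0.667, 0.693 and 0.695 in WT 1 to 4 and 0.796, 0.813, 0.797 and 0.819 in KLF10AKO 1 to 4. The groups did not overlap, and the ratio rose in mean from 0.686 ± 0.0128 to 0.806 ± 0.0115 (SD, n = 4 each). Since both sums come from the same library, this ratio does not depend on how libraries are scaled. It was not tested, as the sums run over members chosen by name.

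Among the small subunit genes, Rps6 encodes the protein that S6 kinase phosphorylates downstream of mTOR. Its FPKM was 227, 277, 243 and 220 in WT 1 to 4 and 690, 744, 608 and 815 in KLF10AKO 1 to 4, with no overlap, and the log2 change was 1.56 (SE 0.115, limma adjusted p = 2.85e-06). Rpsa (chromosome 9, 120127689 to 120132369, plus strand), which encodes a small subunit protein also known as the laminin receptor precursor, measured 161, 155, 178 and 155 in WT and 514, 540, 456 and 586 in KLF10AKO. It rose by 1.69 (SE 0.0935, adjusted p = 5.43e-07). Rps19, the gene most often mutated in Diamond-Blackfan anaemia, measured 73.8, 66.0, 84.4 and 70.2 FPKM in WT and 207, 222, 182 and 250 in KLF10AKO, a rise of 1.54 (SE 0.112, adjusted p = 2.56e-06). All 3 genes stood within 0.25 of the family's median, and in all 3 KLF10AKO 4 was the highest and KLF10AKO 3 the lowest of the knockout libraries.

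Rps27a is made as a fusion with ubiquitin, from which the ribosomal protein is cut. Its FPKM was 48.1, 64.7, 54.2 and 45.0 in WT and 137, 263, 193 and 162 in KLF10AKO, and it rose by 1.79 (SE 0.198, limma adjusted p = 3.66e-05). Here KLF10AKO 2 was the highest and KLF10AKO 1 the lowest, so the knockout libraries were ordered otherwise than in Rps6. Rps4x, the X-linked gene of ribosomal protein S4, rose by 1.49 (SE 0.0967, adjusted p = 1.35e-06), from 220, 239, 244 and 210 in WT to 630, 666, 558 and 711 in KLF10AKO.

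The 3 small subunit genes that rose furthest were Rps27, Rps16 and Rps15a. Rps27 (mm10 chromosome 3, 90212522 to 90213651, minus strand), a zinc-finger protein of the small subunit, had an FPKM of 138, 84.3, 156 and 129 in the WT libraries and of 667, 806, 622 and 925 in the knockout. Its change was 2.59 (SE 0.202, limma adjusted p = 4.06e-06). The near-identical Rps27rt lies elsewhere in the genome and rose by 1.91, and with the reads of Rps27's 4 copies pooled the change of Rps27 was 2.46. Rps16 (chromosome 7, 28350652 to 28353155, plus strand), whose protein reaches the tRNA-binding site of the subunit, went from 192, 156, 194 and 184 in WT to 729, 802, 638 and 897 in KLF10AKO, a change of 2.07 (SE 0.122, adjusted p = 7.62e-07). Rps15a (chromosome 7, 118104372 to 118116188, minus strand) went from 25.1, 27.3, 28.2 and 23.5 to 106, 116, 91.6 and 131, a change of 2.06 (SE 0.111, adjusted p = 4.53e-07). In these 3 genes every knockout library was more than 3 times the highest WT library.

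At the other end of the small subunit, Rps2 rose least among its passing genes. Its FPKM was 245, 278, 267 and 249 in WT and 472, 492, 453 and 508 in KLF10AKO, a change of 0.89 (1.85-fold, SE 0.0762, limma adjusted p = 7.25e-06). Its groups were still fully separate. Rps15, the highest small subunit gene that the name rule takes, measured 502, 510, 541 and 470 FPKM in WT and 1394, 1506, 1201 and 1629 in KLF10AKO, a change of 1.49 (SE 0.114, adjusted p = 3.61e-06). The 19 small subunit genes not described one by one all rose, by 1.16 to 1.97 on the log2 scale, with mean FPKM of 54.7 to 336 in WT and of 207 to 942 in KLF10AKO and adjusted p from 1.78e-07 to 3.74e-04.

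In the large subunit, the acidic stalk proteins Rplp0, Rplp1 and Rplp2 form the arm that recruits elongation factors. Rplp1 was the highest member of the family at 1083, 1091, 1235 and 1030 FPKM in WT and 2985, 3158, 2668 and 3369 in KLF10AKO, and rose by 1.45 (SE 0.123, limma adjusted p = 6.58e-06). Rplp0, often used as a reference gene in qPCR, went from 396, 309, 429 and 366 to 992, 1048, 893 and 1098, a rise of 1.43 (SE 0.122, adjusted p = 6.85e-06). Rplp2 went from 196, 249, 215 and 205 to 459, 491, 414 and 557, a smaller rise of 1.15 (SE 0.114, adjusted p = 1.84e-05). The 3 stalk genes thus rose 2.22-fold to 2.74-fold, with no overlap of groups in any.

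Rpl5 and Rpl11 bind the 5S ribosomal RNA, and the free complex is known to bind and inhibit MDM2, the ligase that degrades p53. Rpl5 went from 76.0, 83.3, 82.5 and 75.2 FPKM to 247, 258, 217 and 280, a change of 1.65 (SE 0.0869, limma adjusted p = 4.10e-07). Rpl11 went from 123, 154, 137 and 123 to 245, 275, 219 and 286, a change of 0.93 (SE 0.110, adjusted p = 5.85e-05). The pair, which acts as a unit, was thus 3.14-fold and 1.90-fold higher in transcript level. That difference between the genes was not tested.

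Other large subunit genes of known role rose by similar amounts. Rpl3, which reaches to the peptidyl transferase centre, went from 115, 114, 122 and 112 FPKM to 288, 309, 247 and 336 in KLF10AKO, a change of 1.34 (SE 0.0960, limma adjusted p = 2.37e-06). Rpl10, an X-linked gene whose protein joins the large subunit late, rose by 0.95 (SE 0.10, adjusted p = 2.87e-05), from 226, 195, 252 and 219 to 418, 453, 384 and 464. Rpl39, also X-linked and lining the exit tunnel, rose by 1.36 (SE 0.112, adjusted p = 5.67e-06), from 93.4, 75.4, 92.6 and 86.7 to 214, 233, 189 and 261. Rpl22, which T cells need for their development, rose by 1.04 (SE 0.0750, adjusted p = 2.42e-06), from 56.7, 58.9, 60.4 and 54.7 to 113, 125, 108 and 132. In all 4 the groups were separate.

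Rpl12, Rpl21 and Rpl17 led the large subunit apart from Rpl3l. Rpl12 (chromosome 2, 32961559 to 32965345, plus strand), whose protein lies at the base of the stalk, was at 52.3, 71.9, 61.5 and 49.5 FPKM in WT and 257, 281, 226 and 307 in KLF10AKO, a change of 2.18 (SE 0.136, limma adjusted p = 1.07e-06). Rpl21 was at 15.9, 16.5, 15.3 and 14.2 in WT and 43.3, 80.8, 73.0 and 96.9 in KLF10AKO, a change of 2.15 (SE 0.213, adjusted p = 1.81e-05). Rpl17 was at 66.0, 57.8, 86.5 and 123 in WT and 727, 735, 607 and 386 in KLF10AKO, a change of 2.89 (7.41-fold, SE 0.274, adjusted p = 1.35e-05). In Rpl17 the library KLF10AKO 4, the highest in most of the family, was the lowest of its group.

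The values of Rpl17 and Rpl21 depend on where reads of near-identical copies were placed. Copies were sought by aligning each member's coding sequence to the GENCODE M21 transcripts, at 95% identity over at least 80% of its length, and 72 of the 80 members had at least one, 542 in all. They held 59.7% of the pooled reads for Rpl17 and 50.5% for Rpl21, and with copies pooled the changes were 2.04 and 1.66 in place of 2.89 and 2.15. The level of Rps10 itself was only 1.28, 1.15, 1.27 and 1.50 FPKM in WT and 5.59, 5.56, 4.89 and 6.06 in KLF10AKO (change 1.75, SE 0.0890, limma adjusted p = 3.38e-07). Its copies, chiefly Rps10-ps2, held 94.4% of the pooled reads, and the pooled change was 1.59. Rpl24 was at 1.24, 1.34, 1.16 and 1.26 in WT and 2.15, 3.43, 1.93 and 4.13 in KLF10AKO (change 0.91, SE 0.198, adjusted p = 2.56e-03). Copies held 71.4% of its pooled reads, and the pooled change was 1.24. Pooled with its copies Rpl24 was still at only 2.92 to 4.79 FPKM in WT. The cause of these low levels was not tested.

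Pooling did not move the family as a whole. Copies held over 10% of pooled reads for 22 members and a median of 3.93%. With all copies pooled, a choice made after seeing the data, the same 77 members were higher and the median was 1.43. Exons of another gene overlapped those of 37 members, and of another coding gene those of 15, among them Rpl5, Rpl12, Rps27a, Rps10 and Rpl13a. The strand setting of the counting is not given in the sources used here, so reads of such neighbours may be shared or dropped. Rpl13a, picked here for its low level after its values were seen, averaged only 5.14 FPKM in WT and 14.1 in KLF10AKO, and its exons overlap those of the coding gene Gm45713. For the 48 tested members with copies under 10% and no coding overlap, 46 rose and the median was 1.45. The other 31 all rose, with a median of 1.38.

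Rpl41 was the exception in size among the abundant genes. It encodes a very short, basic peptide of the large subunit, has no copy by the criteria above and overlaps no exon of another gene. Its FPKM was 548, 689, 585 and 461 in WT and 760, 825, 711 and 874 in KLF10AKO, a change of 0.48 (1.40-fold, SE 0.134, limma adjusted p = 9.36e-03), with the groups separate. Compared with KLF10AKO 4 alone, a single library, its change was 0.63. In WT its level overlapped that of Rpl36 (544, 553, 603 and 534), and in KLF10AKO it stood below Rpl36 in every library (1090, 1188, 948 and 1318). Rpl36 itself rose by 1.01 (SE 0.117, adjusted p = 4.86e-05). The other 31 large subunit genes tested, Rpl13a among them, all rose, by 0.94 to 1.84, with adjusted p from 4.17e-07 to 5.57e-04.

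**Figure D2:**
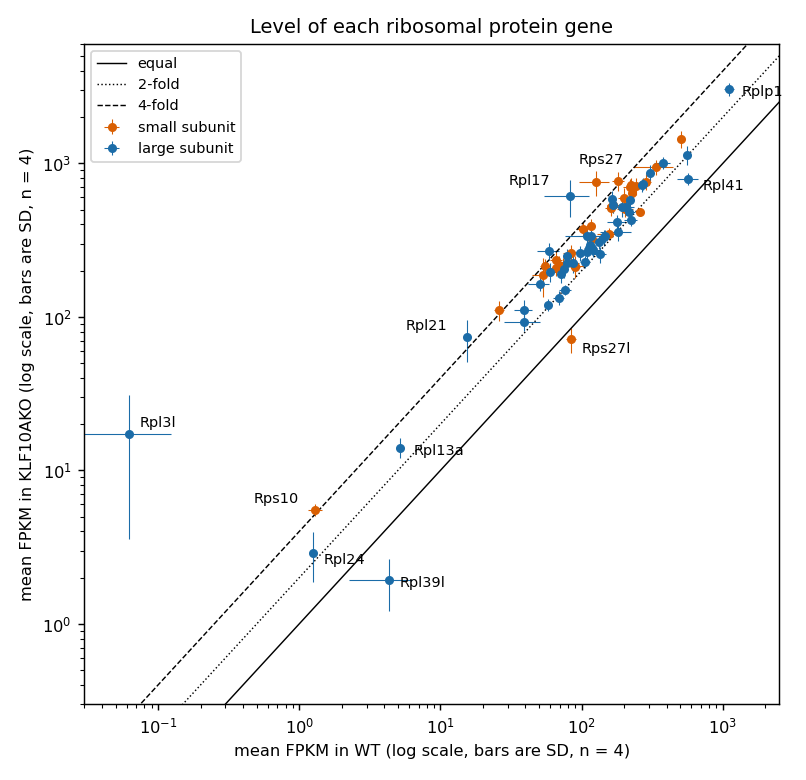
Mean FPKM of each ribosomal protein gene in WT (horizontal, log scale) and in KLF10AKO (vertical, log scale), with SD of 4 libraries as bars, coloured by subunit, and lines for equal, 2-fold and 4-fold levels. Most genes lie between the 2-fold and 4-fold lines. Rpl10l, with no reads, is not drawn.

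The relatives of the family's genes departed from it in different ways. Rps27l (chromosome 9, 66946086 to 66949516, plus strand), a relative of Rps27 known to be induced by p53, was at 85.6, 79.5, 94.2 and 78.6 FPKM in WT and 75.6, 62.3, 88.9 and 60.2 in KLF10AKO. The groups overlapped, and the log2 change was -0.25 (95% interval -0.54 to 0.04, limma adjusted p = 0.106). The call changed with the fit: the change was -0.36 without KLF10AKO 3 (adjusted p = 0.0126). With KLF10AKO 4 alone, a single library, the change was -0.48. It was -0.041 with TPM (adjusted p = 0.801), -0.050 after quantile normalization (adjusted p = 0.699) and 1.39 with libraries scaled to adipocyte markers. Against its partner, with 0.5 added to both FPKM values here and in the ratios below, the difference was large. The log2 ratio of Rps27l to Rps27 averaged -0.55 ± 0.313 over the WT libraries and -3.39 ± 0.514 over the knockout libraries (SD, n = 4 each), a difference of -2.83 (exact two-sided permutation p = 0.0286, 0.0476 adjusted over 5 pairs), lower in 4 of 4 knockout libraries. The smallest p that 4 against 4 can give is 0.0286.

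Rpl39l (chromosome 16, 10170226 to 10174911, plus strand), the testis-type relative of Rpl39, was at 6.04, 2.89, 6.01 and 2.21 FPKM in WT and 1.71, 2.54, 2.46 and 1.02 in KLF10AKO. These levels rest on 27 to 75 reads per WT library and 15 to 40 per KLF10AKO library, and the groups overlapped. The gene fell by 0.92 (SE 0.337, limma adjusted p = 0.0329). The call was lost without WT 1, WT 3, KLF10AKO 1 or KLF10AKO 4 (changes of -0.74, -0.74, -0.90 and -0.72, adjusted p 0.0881, 0.0881, 0.0681 and 0.0796), and the change was 0.48 with scaling to adipocyte markers. Over Rpl39, its log2 ratio averaged -4.29 ± 0.565 in WT and -6.57 ± 0.617 in KLF10AKO, a difference of -2.28 (exact permutation p = 0.0286, adjusted 0.0476).

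Rpl3l (chromosome 17, 24727820 to 24736143, plus strand), the striated-muscle relative of Rpl3, followed the muscle markers and not the family. It had 0, 0, 0 and 6 reads in WT 1 to 4 and 714, 437, 962 and 1 in KLF10AKO 1 to 4, that is 22.92, 14.01, 32.29 and 0.0345 FPKM in the knockout. The fitted change was 3.99 (SE 1.15, limma adjusted p = 0.0113), but the groups overlapped, as KLF10AKO 4 lay below WT 4. Without KLF10AKO 4 the change was 5.34 (adjusted p = 9.80e-07), and voom on the recovered reads gave an adjusted p of 0.391. With KLF10AKO 4 alone, a single library, the change was -0.05. The fast-muscle troponin Tnnt3 was at 996, 748, 1698 and 3.11 FPKM in the same 4 libraries and between 0.295 and 0.634 in WT. Rpl3l and Tnnt3 thus share the order KLF10AKO 3, 1, 2 and 4 from high to low, the reverse of the order of most ribosomal protein genes. The ratio of Rpl3l to Rpl3 did not pass (difference 2.65, exact permutation p = 0.143, adjusted 0.179).

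Rpl10l, the testis-type relative of Rpl10, had 0 reads in all 8 libraries, which allows up to 3 reads in each by counting error alone. Rpl22l1, the relative of Rpl22 that the name rule leaves out, moved with its partner. It went from 16.5, 19.4, 19.3 and 15.5 FPKM to 34.7, 37.1, 36.7 and 36.5, a rise of 1.02 (SE 0.0801, limma adjusted p = 4.17e-06). Its log2 ratio to Rpl22 was -1.69 ± 0.0995 in WT and -1.71 ± 0.121 in KLF10AKO (difference -0.02, exact permutation p = 0.83). Rps4l, which the table types as a pseudogene and the rule therefore leaves out, fell by 1.45 (SE 0.0794, adjusted p = 5.01e-07), from 53.4, 60.0, 55.6 and 60.2 to 20.0, 22.5, 21.9 and 18.2. With scaling to adipocyte markers its change was 0.16. Its ratio to Rps4x fell by 2.94 (exact permutation p = 0.0286, adjusted 0.0476), with separate groups. Rps4l lay lower and Rps4x higher in every KLF10AKO library than in any WT library. That fixed the separation and the p of this ratio, so the test adds nothing to those changes. The pair also counts in the adjustment over 5 pairs, so the adjusted 0.0476 of Rps27l and Rpl39l rests in part on it.

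**Figure D3:**
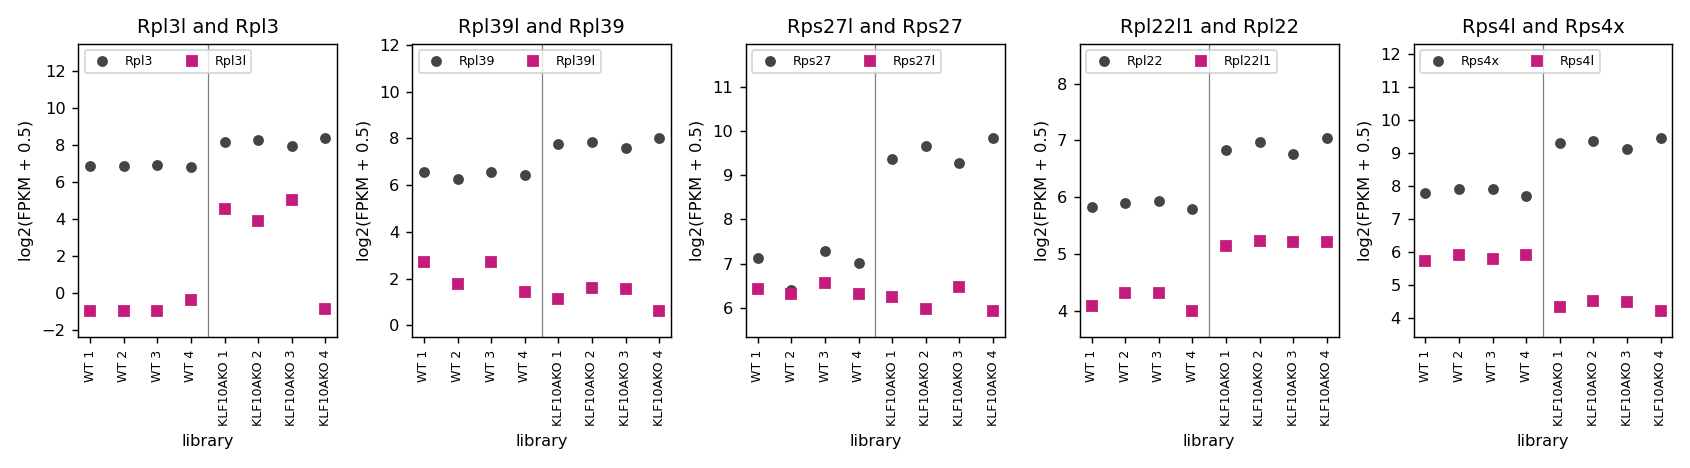
Level of 5 relatives (squares) and their partner genes (circles) as log2(FPKM + 0.5) in each of the 8 libraries, with a line between the WT and KLF10AKO libraries. Rpl3l is high in KLF10AKO 1 to 3 alone, Rps27l and Rpl39l stay below or near their WT levels while Rps27 and Rpl39 rise, Rpl22l1 rises with Rpl22, and Rps4l falls while Rps4x rises.

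Within the knockout group the members moved together from library to library. In 68 of the 77 genes that rose the knockout libraries stood in the order 3, 1, 2, 4 from low to high, where 2092 of all 6305 genes that rose (33.2%) did. KLF10AKO 3 was the lowest in 72 of the 77 and KLF10AKO 4 the highest in 72. The share of reads in the family followed the same order. The summed B cell markers (2372, 2813, 2983 and 3380 FPKM for KLF10AKO 3, 1, 2 and 4) and T cell markers (786, 963, 1072 and 1185) stood in that order too, and the summed adipocyte markers (6239, 5646, 5571 and 4952) and muscle markers (10790, 6112, 4620 and 38.0) in the opposite one. With 4 libraries this is a description of these libraries, and its part in the rise was not tested. The median member stood 1.23 (KLF10AKO 3) to 1.61 (KLF10AKO 4) above its WT mean on the log2 scale.

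**Figure D4:**
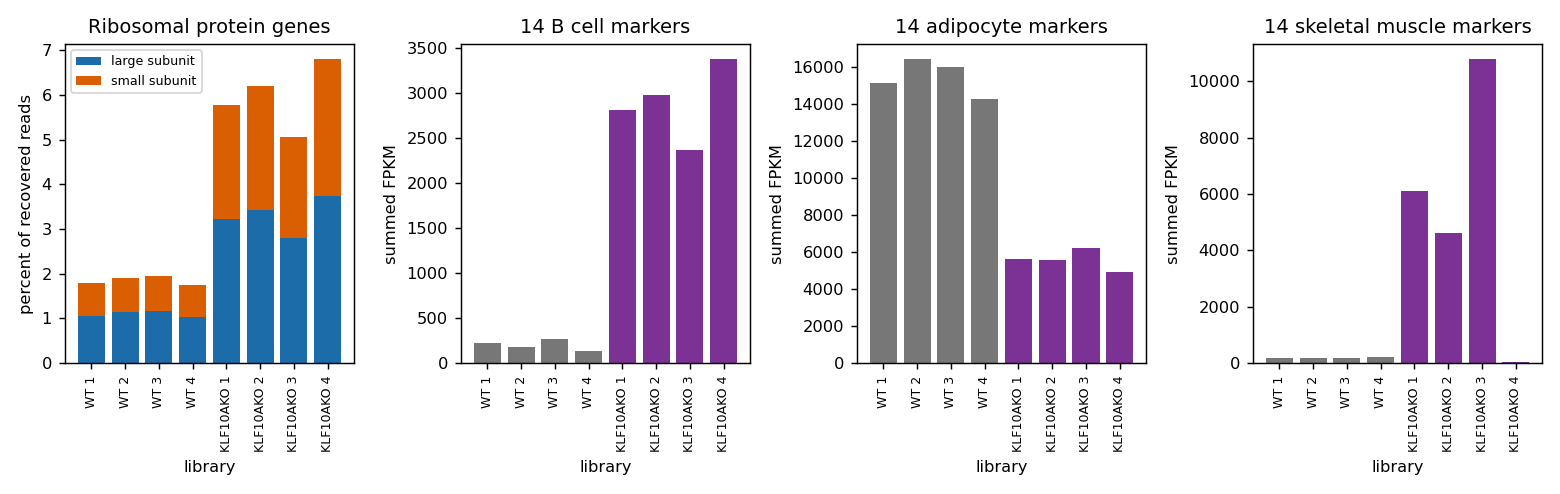
Percent of recovered reads in ribosomal protein genes (left, stacked by subunit) and summed FPKM of B cell, adipocyte and skeletal muscle markers (right) in each library. Ribosomal protein genes and B cell markers are highest in KLF10AKO 4, adipocyte markers are lower in all 4 KLF10AKO libraries than in WT, and muscle markers are high in KLF10AKO 1 to 3.

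A list of 10 genes named for or close to ribosomal proteins, which the name rule leaves out, holds ribosomal proteins along with the binding protein gene Rps19bp1, the row Rpl9-ps6 and the copy Rps27rt. Of 9 tested 8 rose and none fell, where 39.4% and 34.9% of all genes tested did. The list's median was 1.02, and Rps19bp1, at 0.0040, did not pass. With copies pooled 6 of 7 rose. Fau, whose product is S30 fused to a ubiquitin-like protein, went from 358, 396, 403 and 366 FPKM to 1236, 1358, 1089 and 1526, a rise of 1.77 (SE 0.117, limma adjusted p = 1.51e-06). Rack1, the scaffold protein on the small subunit, rose by 1.54 (SE 0.0882, adjusted p = 6.44e-07).

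Of 16 elongation factors and other genes with TOP messengers 14 rose and 1 fell, where 39.4% and 34.9% of all genes tested did. The list's median was 0.77 (0.98 with TPM, 1.02 after quantile normalization and 2.40 when scaled to adipocyte markers). Npm1, a nucleolar chaperone, rose by 1.57 (SE 0.105, limma adjusted p = 1.58e-06), Hnrnpa1 by 1.59 and Eif3f by 0.88, while Nap1l1, named as the exception, fell by 0.62 and changed by 1.01 with scaling to adipocyte markers. The most abundant of these, Eef1a1, which brings aminoacyl-tRNA to the ribosome, rose by 0.65 (adjusted p = 1.17e-03, but 0.103 with no filter), from 1506, 1725, 1602 and 1417 FPKM to 2385, 2540, 2184 and 2684. Of 29 initiation factors 10 rose and 5 fell, beside 39.4% and 34.9% of all genes tested, with a median of 0.05. The counts were 19 and 3 with reads divided by their totals, 13 and 3 with TPM, 29 and 0 with scaling to adipocyte markers (median 1.65), and 3 fell without WT 3 or without KLF10AKO 4. Eif4a2 rose by 0.82 and Eif3m by 0.68, while Eif4g1 fell by 0.73 and changed by 0.90 under that scaling.

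The machinery that builds ribosomes rose in most of its genes. Of 42 assembly factors 36 rose and 1 fell, where 39.4% and 34.9% of all genes tested did, with a median of 0.57. Fbl, the methyltransferase of small nucleolar ribonucleoproteins, went from 4.10, 5.19, 4.46 and 4.53 FPKM to 18.7, 18.2, 16.4 and 22.1, a rise of 1.93 (SE 0.0997, limma adjusted p = 3.67e-07). Its partner Nop56 rose by 1.90 (SE 0.101, adjusted p = 4.15e-07), and Nob1, the nuclease that trims small subunit RNA, by 1.03. The exception was Sbds, which helps free the large subunit for joining: it fell by 0.48, with a TPM change of -0.28 (adjusted p = 0.0544) and a change of 1.15 when scaled to adipocyte markers. Of 15 genes of RNA polymerase I and its factors 12 rose and none fell, beside the same shares of all genes. Their median was 0.57, and Taf1c rose by 1.37, Taf1d by 0.98 and Znrd1 by 0.92.

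Of 19 tested genes that control ribosomal protein synthesis 7 rose and 9 fell, beside 39.4% and 34.9% of all genes tested, with a median of -0.08 (0.12 with TPM, 0.13 with reads divided by their totals and 1.50 with scaling to adipocyte markers, where 17 rose and 1 fell). Without KLF10AKO 1 only 4 rose. Myc, the transcription factor that drives ribosome genes, went from 3.62, 3.41, 3.73 and 3.13 FPKM to 19.0, 18.5, 17.0 and 19.9, a rise of 2.27 (SE 0.0717, limma adjusted p = 1.95e-08). Mycl fell by 1.53 (SE 0.0674, adjusted p = 1.44e-07), from 11.95, 13.27, 11.96 and 13.88 to 4.26, 4.07, 4.18 and 3.83, and scaled to adipocyte markers its change was -0.0011 (adjusted p = 0.993). Deptor, an inhibitor of mTOR, fell by 1.84. Mtor itself fell by 0.54 and Eif4ebp1, the mTOR target that holds eIF4E, by 1.25, both picked after their values were seen, and with scaling to adipocyte markers they changed by 1.00 and 0.38.

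Among 9 genes of the responses to stalled ribosomes and free ribosomal proteins, 4 rose and 3 fell. Of all genes tested 39.4% rose and 34.9% fell. The list's median was 0.13 (-0.02 with quantile normalization). Trp53 went from 8.86, 8.38, 7.81 and 10.3 FPKM to 25.5, 26.0, 22.4 and 30.8, a rise of 1.51 (SE 0.111, limma adjusted p = 2.84e-06). Mdm2 rose by 0.44, and Cdkn1a, a target of p53, fell by 0.91 and changed by 0.69 with scaling to adipocyte markers. Rps27l, itself a p53 target, is described above.

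The ribosomal proteins of mitochondria, which serve the separate ribosome of that organelle, had a lower median change than the cytosolic set under every scaling run. Of 77 tested 8 rose and 34 fell, where 39.4% and 34.9% of all genes tested did. Their median was -0.15, beside 77 rising of 79 and a median of 1.44 for the cytosolic set. Both the counts and the sign of the median depended on scaling. With TPM 14 rose and 8 fell (median 0.05), with reads divided by their totals 23 and 9 (median 0.07), after quantile normalization 4 and 41 (median -0.24) and with scaling to adipocyte markers 76 and 0 (median 1.46). Without WT 1 or without KLF10AKO 2 only 5 rose. Mrps6 fell by 1.64 (SE 0.156, limma adjusted p = 1.42e-05), from 84.6, 86.7, 84.1 and 67.7 FPKM to 27.8, 25.6, 31.8 and 18.7. Mrpl27 fell by 0.84 and Mrpl50 by 0.70. With scaling to adipocyte markers Mrps6 changed by -0.015 (adjusted p = 0.890), Mrpl27 by 0.78 and Mrpl50 by 0.90.

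**Figure D5:**
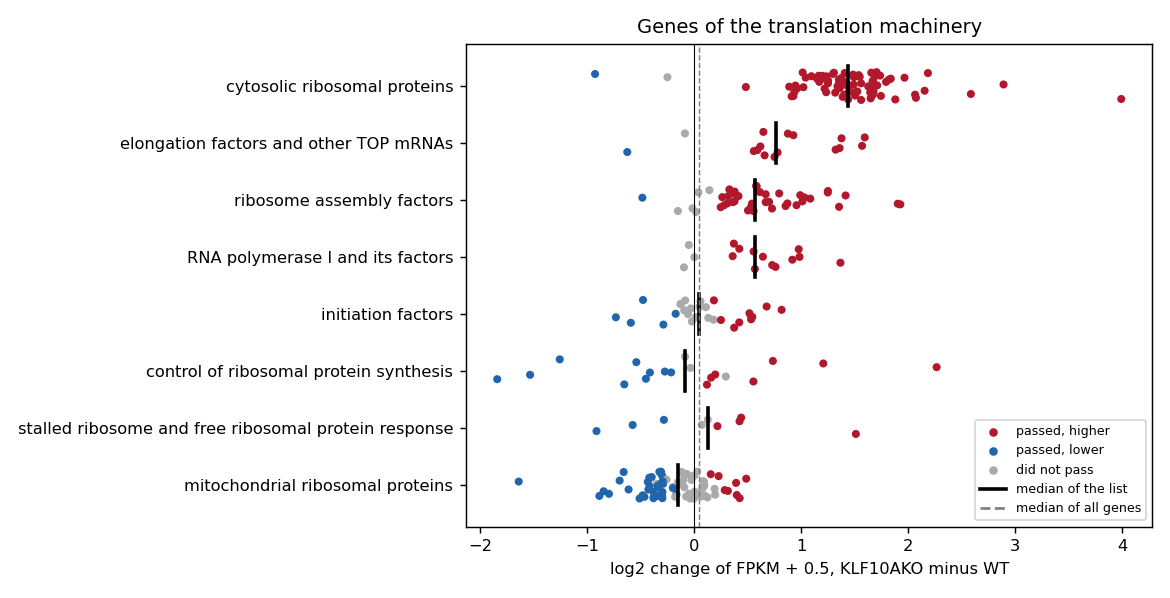
Log2 change of FPKM + 0.5 (KLF10AKO minus WT, horizontal axis) of each tested gene of 8 lists of the translation machinery, coloured by whether it passed, with the list median as a bar and the median of all genes as a dashed line. Cytosolic ribosomal proteins lie furthest right with a median of 1.44, and mitochondrial ribosomal proteins furthest left with a median of -0.15.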

How the data were processed

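Polyadenylated RNA of the inguinal fat pad was sequenced in 8 libraries. The submitters' processing notes name the genome mm10 and 3 tools, edgeR (3.22.5), featureCounts (1.5.0-p3) and HISAT2 (2.0.5). What each tool did, which annotation was used and how strands were treated is not given in the sources used here. FPKM per gene, with gene lengths, were what the authors deposited. FPKM times length gave whole reads for 100% of values (within 0.01 of a read), and these recovered reads give the shares of each library. They were 1.05 to 1.09 times the library size implied in WT and 0.901 to 0.939 times in KLF10AKO, so the authors had scaled the sizes.

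The groups were fitted with limma 3.58.1 (R 4.3.3, eBayes with trend) on log2(FPKM + 0.5) of 16012 genes of mean FPKM at least 0.5, two-sided, with Benjamini-Hochberg adjustment over them, at a threshold of 0.05. Fold changes on this scale understate those of low genes. The procedure was also run on simulated data in which few genes changed. That run does not cover data like these, where most genes tested passed. Ratios of relatives to partners were taken on FPKM + 0.5, which shifts those of low genes. They used exact permutation tests, adjusted over 5 pairs. Copies were found with BLAST 2.17.0 in GENCODE M21, which held 54495 of the 54532 identifiers, and genes over 5 times the coding length were not counted as copies. The members and lists were chosen with earlier results of these data known. Genes named were Klf10, relatives with partners, 9 members by role, the 6 largest passing changes with separate groups, the 4 smallest changes, the 4 highest and the 4 lowest levels, members at 0, and up to 3 genes of lowest p in each list; exceptions say so. Nap1l1, Eef1a1, Sbds, Mtor, Eif4ebp1, Tnnt3, Rps27rt and Rpl13a were chosen after their values were seen. Alternatives were a pseudocount of 0.1 or 1, a fit without the filter or with one of 2 FPKM, other scalings, voom, robust eBayes, a replicate block, coding genes alone, a fold of at least 1.5, libraries left out, KLF10AKO 4 alone and, added after seeing the data, pooled copies. Intervals cover the spread between libraries, and floors of 3 reads cover counting error alone.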

Additional observations from a re-analysis of the deposited data

Results flagged for a closer look

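One value stood apart within its group. The FPKM of Rpl3l in WT was 0.249 in WT 4 and 0 in the other 3 WT libraries, so the gap from the highest sample to the nearest spanned the group's whole range (a ratio of 1.0, past the limit of Dixon's test for 4 samples). It rests on 6 reads. Of 62 groups of 4 examined this was the only such value, and chance alone puts about 1 in 20 groups past the limit.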

How the results depend on the processing

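The count of members that rose stayed between 76 and 78 under the alternatives with more than 1 library in each group. It was 76 with voom and with a fold of at least 1.5, and 78 with scaling to adipocyte markers. The count that fell was 1 in the main fit and 0 with no filter, 0 with reads divided by their totals and 0 with scaling to adipocyte markers. It ran from 0 to 2 when 1 library was left out. With the replicate block it was 2, Rps27l passing with an adjusted p of 0.0228 (limma). Replicates of the same number deviated from their group means with correlations of 0.02, 0.00, 0.03 and 0.01. Replicates of unlike number gave -0.02 to 0.01. Values this near 0 cannot tell whether the numbers pair the libraries. The family's median log2 change was 1.65 with TPM, 1.66 with reads divided by their totals, 3.08 with scaling to adipocyte markers and 1.61 with KLF10AKO 4 alone, where the ratio of shares was 3.66. Leaving out 1 library gave medians of 1.39 to 1.50 and ratios of 3.06 to 3.37. The very short gene Gm23935 took 0.405% of the reads in WT 1 and at most 0.00987% elsewhere. The cause of these shifts was not tested.

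With KLF10AKO 4 alone, assumed to vary like WT, Rpl3l changed by -0.049. With scaling to adipocyte markers, which moved the median of all genes to 1.54, the sign turned for Rpl39l (0.48), Rps27l (1.39), Rps4l (0.16), Klf10 (0.71), Mrpl27 (0.78), Mrpl50 (0.90), Eif4g1 (0.90), Cdkn1a (0.69), Sbds (1.15), Nap1l1 (1.01), Mtor (1.00) and Eif4ebp1 (0.38). With no filter, Eef1a1 had an adjusted p of 0.103. Of all passing genes 53.0% were higher in the main fit, 63.4% with TPM, 63.4% with reads divided by their totals, 41.2% after quantile normalization and 98.6% when scaled to adipocyte markers. Depth limits Rpl39l, Rpl3l, Rpl10l, Rps10 and Rpl24, which had at most 75, 6, 0, 51 and 23 reads in a WT library.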
